A study of Mus musculus with 36 samples.

Results

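The second experiment with VDH15 tumours compared the mouse stroma of tumours grown under a palmitate-rich diet with that of tumours grown under a control diet. VDH15 is a human oral carcinoma cell line, and its cells had been placed orthotopically into NOD-SCIDγ (NSG) mice, an immunodeficient strain without mature lymphocytes. RNA came from a stromal cell fraction labelled as neural and was measured on mouse Affymetrix arrays. The comparison takes the 6 arrays of tumours that carried the non-targeting PLKO shRNA, out of 36 arrays in the series, chosen by their labels alone. Of these, 3 arrays hold the palmitate group (diet rich in palmitic acid) and 3 the control group (control diet). The shRNA acted in the human carcinoma cells, so the mouse Cd36 probe set is no check of it. Mice of both groups share the host strain. The labels make the 3 arrays of a group technical replicates of 1 biological replicate. Every error below is therefore the spread among 3 arrays, n = 1 biological replicate per diet, and a call says that those labelled samples differ beyond that spread. For comparison, 6 arrays came from tumours with an shRNA against CD36 (shCD36) in the same experiment, 8 from the first VDH15 experiment and 6 from tumours of SCC25, another human oral carcinoma line, all on palmitate or control diet. The age and sex of the mice and the length of the diets were not used here.

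Palmitic acid is a saturated fatty acid of palm oil and animal fat, and CD36 is a membrane receptor through which cells take up long-chain fatty acids. Stroma is the non-malignant tissue that a tumour recruits: fibroblasts that deposit collagen, vessels, immune cells and the peripheral nerves with their Schwann cells. Schwann cells wrap axons, and after nerve injury they change into a repair state in which they secrete cytokines and remodel the surrounding matrix. The experiment addressed which transcripts of this fraction differed with the host's diet, and the shCD36 tumours whether the difference was also present when the tumour cells carried an shRNA against CD36.

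The labelled tissue was read first against marker genes. Of 17 Schwann cell and glial markers with a probe set, 5 lay below the expression filter of 5.19 log2, among them S100b, Gfap, Foxd3 and Fabp7, while the glial transcription factor Sox10 averaged 6.86 log2 and the neuregulin receptor Erbb3 8.80 log2 over the 6 arrays. Of 18 neuron and synapse genes, 8 were below the filter, including the neurofilament genes Nefl, Nefm and Nefh. All 17 basal keratinocyte and epithelial markers were above it, with Krt5 at 12.6 log2, as were 16 of 18 fibroblast and 19 of 20 endothelial markers. Median levels were 10.7 log2 for basal keratinocyte and epithelial markers, 9.60 for endothelial and 8.94 for fibroblast markers. They were 6.55 log2 for Schwann cell and glial markers, 5.98 for myelin genes and 5.41 for neuron and synapse genes. All genes with a probe set had a median of 6.64 log2. Markers of epithelium, fibroblasts and vessels were thus read in the fraction at higher levels than those of glia. In bulk RNA, a larger number of cells of a type and more RNA per cell cannot be told apart. Binding of human tumour transcripts to the mouse probe sets was not tested.

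Palmitate array 1 stood apart from the other 5 arrays. On the first principal component, with 65.3% of the variance, it scored 44.2, against 3.36 and 7.31 for palmitate arrays 2 and 3 and −22.6 to −15.8 for the control arrays. Its correlation with the other arrays over the genes tested was 0.942 to 0.974, and that among the other 5 arrays was 0.978 to 0.993. Values on palmitate array 1 ran from −0.165 to 14.8 log2. On the other 5 arrays the lowest value was 2.42 to 3.12 log2 and the highest 13.2 to 13.4 log2. The part of this wider range in the differences on palmitate array 1 was not tested. On palmitate array 1, 806 genes were at least 1 log2 away from the control mean, compared with 87 and 148 on palmitate arrays 2 and 3. For many lists, calls and medians without it are given as well, and a value given once may also change without it. Over all genes, 3.08% were called higher and 3.18% lower without it, the shares beside which such list calls stand. All arrays of the experiment shared 1 hybridization batch and 1 scan batch.

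Of 12823 genes tested, 248 (1.93%) differed between palmitate and control diets, 155 (1.21%) higher and 93 (0.725%) lower with palmitate. Where a list is given without a share, its calls with all arrays stand beside this 1.21% and 0.725%. Among called genes, the 15 largest rises include collagens, matrix metalloproteinases and secreted matrix proteins beside the deiodinase Dio2, the chemokine Cxcl5 and haptoglobin (Hp). The 15 largest falls of called genes include an acyl-CoA thioesterase, a calprotectin subunit and the chemokine Cxcl14. The median difference of all genes was −0.01 log2, and 5% of genes lay below −0.50 and 5% above 0.52. In all 248 called genes the 3 palmitate arrays did not overlap the 3 control arrays. Without regard to a test, 1912 genes (14.9%) had every palmitate array above every control array and 2193 (17.1%) had every palmitate array below. With a difference of at least 2-fold added, 104 genes (0.811%) were higher and 135 (1.05%) lower, and 51 of these 239 were among the 248. Without palmitate array 1, limma called 395 genes higher (3.08%) and 408 lower (3.18%), and all 248 were among them. Leaving out a control array reduced the calls to between 2 and 4 genes. The collagen genes Col6a3 and Col5a3 were called whichever control array was left out, Olfml3 without control array 1 or 3, and Thbs2 without control array 1 (Olfml3 and Thbs2 are named for these calls, after their values were seen).

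**Figure D1:**
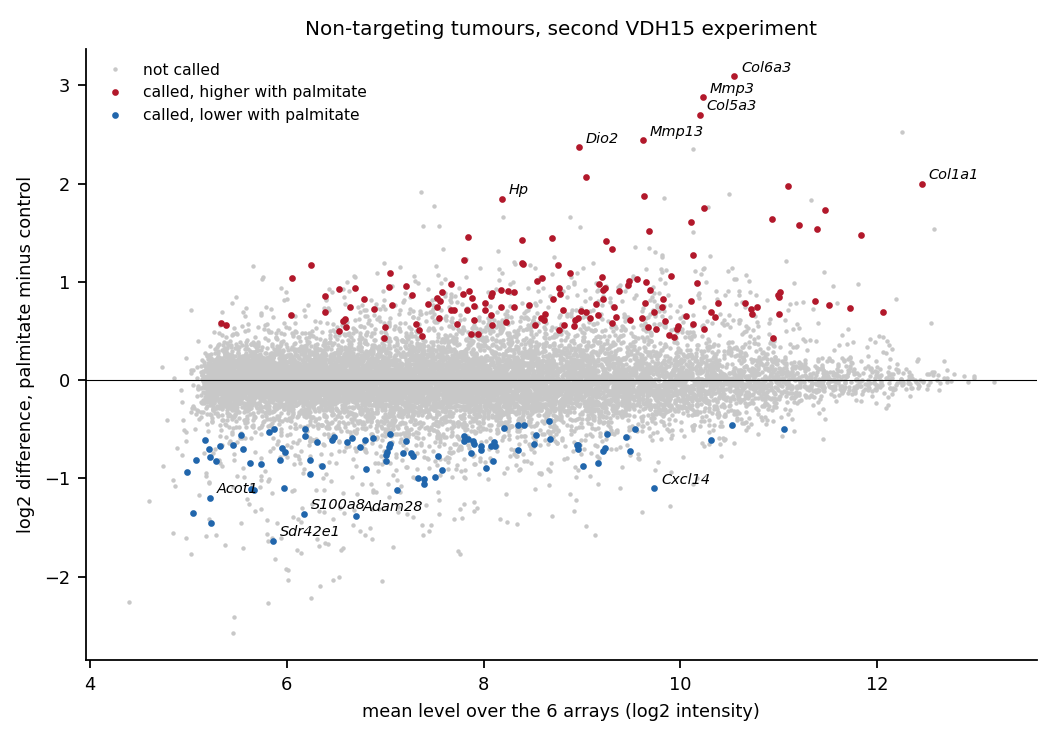
Difference between palmitate and control arrays (log2, vertical axis) against the mean level over the 6 arrays (log2 intensity, horizontal axis) for 12823 genes. Red points are the 155 genes called higher and blue points the 93 called lower with palmitate. Col6a3 at 3.09 log2 is the highest point, and several uncalled grey points lie below the lowest called gene, Sdr42e1 at −1.63 log2.

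Collagens had the highest median difference of the 41 gene lists with all arrays, whereas without palmitate array 1 the macrophage and myeloid list was higher (0.69 against 0.66 log2). Of 20 collagen genes listed, 18 were tested, 5 rose and none fell, beside 1.21% and 0.725% of all genes, and 15 had every palmitate array above every control array, beside 14.9% of all genes. Their median difference was 0.99 log2, and 0.66 log2 without palmitate array 1, when 11 of them were called higher. By array, the median stood 1.64, 0.73 and 0.60 log2 above the control mean on palmitate arrays 1, 2 and 3. The high value belonged to the array that stood apart, and the other palmitate arrays were on the same side of the control mean.

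Col6a3, a chain of the beaded-filament collagen VI, measured 11.87, 12.29 and 12.12 log2 on palmitate arrays 1 to 3, against 9.02, 8.93 and 9.05 log2 on control arrays 1 to 3. The arrays of each diet lay close together and about 3 log2 apart between diets. The difference was 3.09 ± 0.12 log2 (SE; adjusted p = 0.000214), an 8.53-fold rise, and 3.21 log2 without palmitate array 1. Collagen V, which starts and regulates the assembly of collagen fibrils, rose in its 3 chains. Col5a3 measured 11.82, 11.51 and 11.32 log2 with palmitate, against 8.74, 8.80 and 9.0 log2 with control diet, a rise of 2.70 ± 0.14 log2 (adjusted p = 0.00102). Neither range came near the other. Col5a1 had 12.48, 11.92 and 11.82 log2 with palmitate and 9.74, 10.49 and 10.08 log2 with control diet. Col5a2 had 12.94, 12.09 and 11.98 log2, against 10.41, 10.96 and 10.44 log2. Col5a1 rose by 1.98 ± 0.23 log2 and Col5a2 by 1.73 ± 0.27 log2, with the highest value in both on palmitate array 1. Col1a1, the main chain of the fibrillar collagen I of bone, skin and scar, measured 13.74, 13.41 and 13.19 log2 with palmitate, against 11.11, 11.76 and 11.48 log2 with control diet. All palmitate arrays were higher, by 2.00 ± 0.20 log2 (adjusted p = 0.0206). Col4a2 of the basement membrane (1.21 ± 0.23 log2, adjusted p = 0.0513) and the fibrillar Col3a1 (1.54 ± 0.30 log2, adjusted p = 0.0517) did not overlap between diets and missed the threshold.

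Among non-collagen matrix genes, 26 of 30 were tested, 4 rose and none fell, beside 1.21% and 0.725% of all genes. All 26 differences were positive and their median was 0.59 log2 (0.44 log2 without palmitate array 1, when 9 were called higher). Thbs2, a matricellular thrombospondin, measured 10.07, 9.89 and 9.97 log2 with palmitate, against 8.50, 8.70 and 8.73 log2 with control diet, a rise of 1.33 ± 0.10 log2 (adjusted p = 0.00829). Postn, which codes for periostin of injured and remodelled tissue, measured 11.64, 10.91 and 10.78 log2, against 9.40, 9.48 and 9.20 log2. It rose by 1.75 ± 0.22 log2, and palmitate array 1 held its highest value. Fibronectin (Fn1) rose by 0.85 ± 0.14 log2 and the small proteoglycan biglycan (Bgn) by 1.58 ± 0.29 log2. Of 13 cross-linking and processing enzymes tested, 1 rose (2 without palmitate array 1): the lysyl oxidase relative Loxl3, by 1.01 ± 0.17 log2. Lox, the enzyme that cross-links collagen and elastin, measured 12.38, 11.08 and 10.86 log2 with palmitate and 9.47, 9.87 and 9.30 log2 with control diet, and at 1.90 ± 0.38 log2 it missed the threshold (adjusted p = 0.0537). Its ranges did not overlap.

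**Figure D2:**
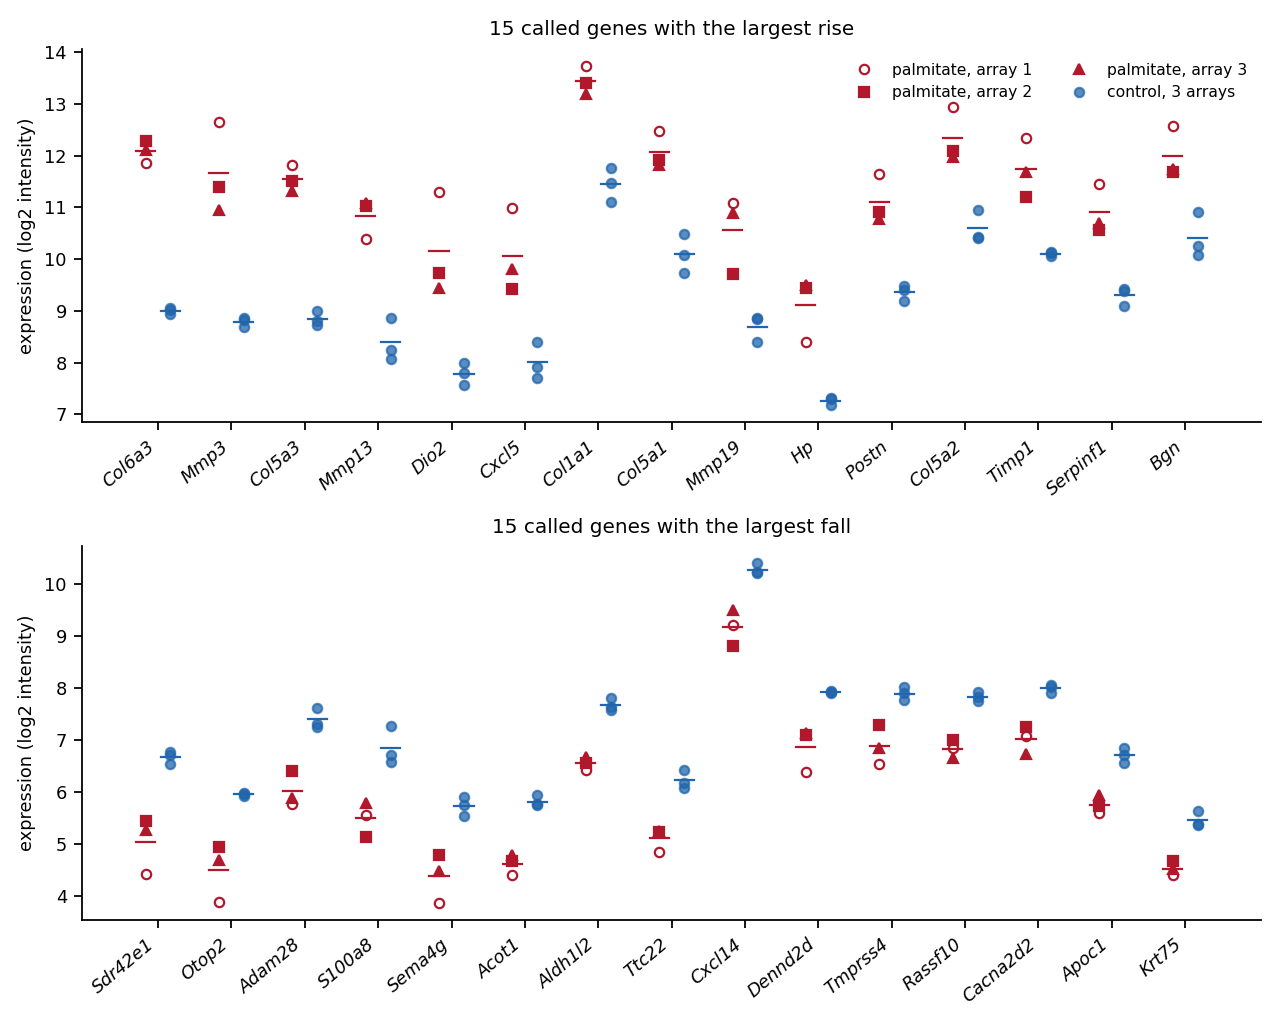
Expression (log2 intensity) on each array for 15 called genes, ranked by size of rise (upper panel) or of fall (lower panel). Red symbols are palmitate arrays, with array 1 as an open circle, blue circles are the 3 control arrays, and bars are means. In all 30 genes the palmitate arrays lie on 1 side of the control arrays, as the rule for naming them required.

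Several proteases that cut this matrix rose as well. Of 19 matrix protease and inhibitor genes tested, 5 rose and none fell, beside 1.21% and 0.725% of all genes. In 15 of the 19 every palmitate array was above every control array, beside 14.9% of all genes. The list's median was 0.61 log2 (0.45 log2 without palmitate array 1, when 8 were called higher). Mmp3, stromelysin 1, measured 12.65, 11.39 and 10.96 log2 with palmitate, against 8.68, 8.83 and 8.85 log2 with control diet. The control arrays were close together, and the palmitate arrays spread over more than 1 log2 above them. The rise was 2.88 ± 0.38 log2 (adjusted p = 0.0303), 7.36-fold, and 2.39 log2 without palmitate array 1. Mmp13, a collagenase, measured 10.38, 11.03 and 11.09 log2, against 8.08, 8.86 and 8.25 log2, a rise of 2.44 ± 0.25 log2. Here palmitate array 1 was the lowest of the palmitate arrays. Mmp19 rose by 1.87 ± 0.34 log2, the lysosomal collagenase cathepsin K (Ctsk) by 1.44 ± 0.23 log2 and the metalloproteinase inhibitor Timp1 by 1.64 ± 0.26 log2.

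Mmp3 and Mmp13 lie in the metalloproteinase cluster of chromosome 9, which was looked at because both were among the 15 largest rises of called genes, after their values were seen. Of 10 genes from Mmp13 (start 7272514 in GRCm38.p6) to Mmp7 (end 7699585), 6 were below the filter and Mmp27 had no probe set of its own. The remaining tested gene, stromelysin 2 (Mmp10), measured 7.32, 8.74 and 9.09 log2 with palmitate, against 6.20, 6.57 and 7.06 log2 with control diet. Its arrays did not overlap, and the difference of 1.77 ± 0.44 log2 missed the threshold (adjusted p = 0.0741). The AP-1 transcription factors, dimers of Fos and Jun proteins, are textbook activators of metalloproteinase promoters, so the promoters were searched for the AP-1 motif TGANTCA, which reads the same on both strands, and for TATAAA on both strands. Shown are the 100 bases before the start of these 3 genes, from RefSeq sequence of GRCm38.p6, plus strand, with both motifs in capitals.
Mmp3, chr9:7445722-7445821: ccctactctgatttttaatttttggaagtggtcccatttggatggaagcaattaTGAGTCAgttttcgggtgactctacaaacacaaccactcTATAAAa
Mmp13, chr9:7272414-7272513: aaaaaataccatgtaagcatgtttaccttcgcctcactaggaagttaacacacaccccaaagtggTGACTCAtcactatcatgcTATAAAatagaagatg
Mmp10, chr9:7502242-7502341: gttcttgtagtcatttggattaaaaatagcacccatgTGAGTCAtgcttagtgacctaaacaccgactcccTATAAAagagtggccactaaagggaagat

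Each of the 3 promoters held 1 AP-1 match in the window of 250 bases before to 50 after the start, beginning 46, 35 and 63 bases before the start of Mmp3, Mmp13 and Mmp10. A TATAAA followed it 7, 16 and 29 bases before the annotated start. Of the 8 tested metalloproteinases in the matrix protease list, 5 had a listed promoter and these 3 held the AP-1 motif, while Mmp11 and Mmp14 had none in this window. TGANTCA was found in 7.81% of 32851 listed promoters and in 6.87% of the 10269 tested genes with a promoter. Among genes called higher it was in 18 of 107 (16.8%) and among genes called lower in 5 of 65 (7.69%). TATAAA was found in 13.6% of the listed promoters, in 9.8% of the tested genes with a promoter, in 21.5% of the genes called higher and in 6.15% of those called lower. The motifs do not overlap each other in the printed sequences. A match is a run of letters and was not shown to be a bound site.

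Inflammatory cytokines and chemokines were also among the genes that rose. Of 29 tested, 5 rose and 1 fell, beside 1.21% and 0.725% of all genes. In 12 of the 29 every palmitate array was above every control array, beside 14.9% of all genes. The median was 0.52 log2 (0.38 log2 without palmitate array 1, when 7 were called higher and 2 lower). Cxcl5, a chemokine that attracts neutrophils, measured 10.98, 9.42 and 9.81 log2 with palmitate, against 8.39, 7.92 and 7.70 log2 with control diet. It rose by 2.06 ± 0.38 log2 (adjusted p = 0.0483), with palmitate array 1 more than 1 log2 above the others. Csf2, which codes for the growth factor GM-CSF of myeloid cells, measured 8.91, 8.55 and 8.22 log2, against 7.32, 6.98 and 7.04 log2, and rose by 1.45 ± 0.18 log2. Il24, a cytokine of the IL-10 family, measured 8.10, 8.56 and 8.57 log2, against 7.26, 7.10 and 7.20 log2, and rose by 1.23 ± 0.14 log2 (adjusted p = 0.0248). In both genes the diets were separated on every array. Cxcl2, another attractant of neutrophils, rose by 0.77 ± 0.11 log2 and Il6 by 0.62 ± 0.10 log2. Cxcl14, a chemokine of epithelia, went the other way: it measured 9.22, 8.81 and 9.51 log2 with palmitate, against 10.21, 10.40 and 10.24 log2 with control diet, and fell by 1.10 log2 (SE 0.17, adjusted p = 0.0361). S100a8, a subunit of the neutrophil and keratinocyte protein calprotectin, measured 5.55, 5.14 and 5.79 log2 with palmitate, against 7.27, 6.58 and 6.71 log2. It was the only called member of 8 neutrophil markers tested and fell by 1.36 log2 (SE 0.22). Its partner S100a9 overlapped between diets at 7.18, 6.64 and 8.31 log2, against 8.45, 7.95 and 7.69 log2.

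Markers of stromal cell types stood beside the matrix genes. Of 16 fibroblast markers tested, 3 rose (Col1a1, Serpinf1 and S100a4) and none fell, beside 1.21% and 0.725% of all genes. Col1a1 is also in the collagen list, and Dcn, Lum and Mfap5 are also in the non-collagen matrix list. The median of the fibroblast markers was 0.89 log2 (0.64 log2 without palmitate array 1, when 5 were called higher and 1 lower). Their mean level lay between 9.19 and 9.91 log2 on the palmitate arrays and between 8.51 and 8.84 log2 on the control arrays, while the fibroblast receptor Pdgfra was below the filter. Serpinf1, an anti-angiogenic serpin, measured 11.45, 10.57 and 10.70 log2 with palmitate, against 9.09, 9.38 and 9.43 log2 with control diet, a rise of 1.61 ± 0.23 log2. Of 19 endothelial markers tested, 2 rose, beside 1.21% of all genes, and 17 had every palmitate array above every control array, beside 14.9%. The endothelial median was 0.76 log2 (0.52 log2 without palmitate array 1, when 13 were called). Their mean level was 9.50 to 10.18 log2 with palmitate, against 8.93 to 9.04 log2. Kdr, the main receptor for VEGF on vessels, measured 11.02, 10.46 and 10.52 log2 with palmitate, against 9.61, 9.71 and 9.71 log2, and rose by 0.99 ± 0.15 log2 (adjusted p = 0.0361). The vessel guidance receptor Robo4 rose by 0.97 ± 0.17 log2. Smooth muscle and pericyte markers gave 1 rise in 9 genes, Mcam, at 0.77 ± 0.13 log2, and a median of 0.05 log2. The part of fibroblast and vessel content in the differences of the matrix genes was not tested.

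Macrophage and myeloid markers differed among the palmitate arrays. Of 14 tested, the mannose receptor Mrc1 rose, by 1.19 ± 0.21 log2, and 7 had every palmitate array above every control array, beside 14.9% of all genes. The list's median was 0.48 log2, and 0.69 log2 without palmitate array 1. Mrc1 measured 9.39, 8.54 and 9.04 log2 with palmitate, against 7.76, 8.01 and 7.64 log2. By array, the median stood 0.19, 0.24 and 1.13 log2 above the control mean on palmitate arrays 1, 2 and 3, so array 3 held its high value. The mean level was 6.45 to 7.34 log2 with palmitate, against 6.19 to 6.26 log2. The pan-macrophage marker Adgre1, the integrin Itgam and Cd163 were below the filter. Mesenchymal transcription factors gave 2 rises in 16 genes, Zfp521 (0.98 ± 0.14 log2) and the epithelial-mesenchymal transition factor Zeb1 (1.00 ± 0.17 log2), and a median of 0.38 log2 (4 rises without palmitate array 1). None of 18 TGF-beta ligands and response genes was called, although 10 had every palmitate array above every control array, beside 14.9% of all genes, and 3 were called higher without palmitate array 1. Their median was 0.35 log2, and the matrix-associated Ccn2 had 1.08 ± 0.24 log2 (adjusted p = 0.0617).

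**Figure D3:**
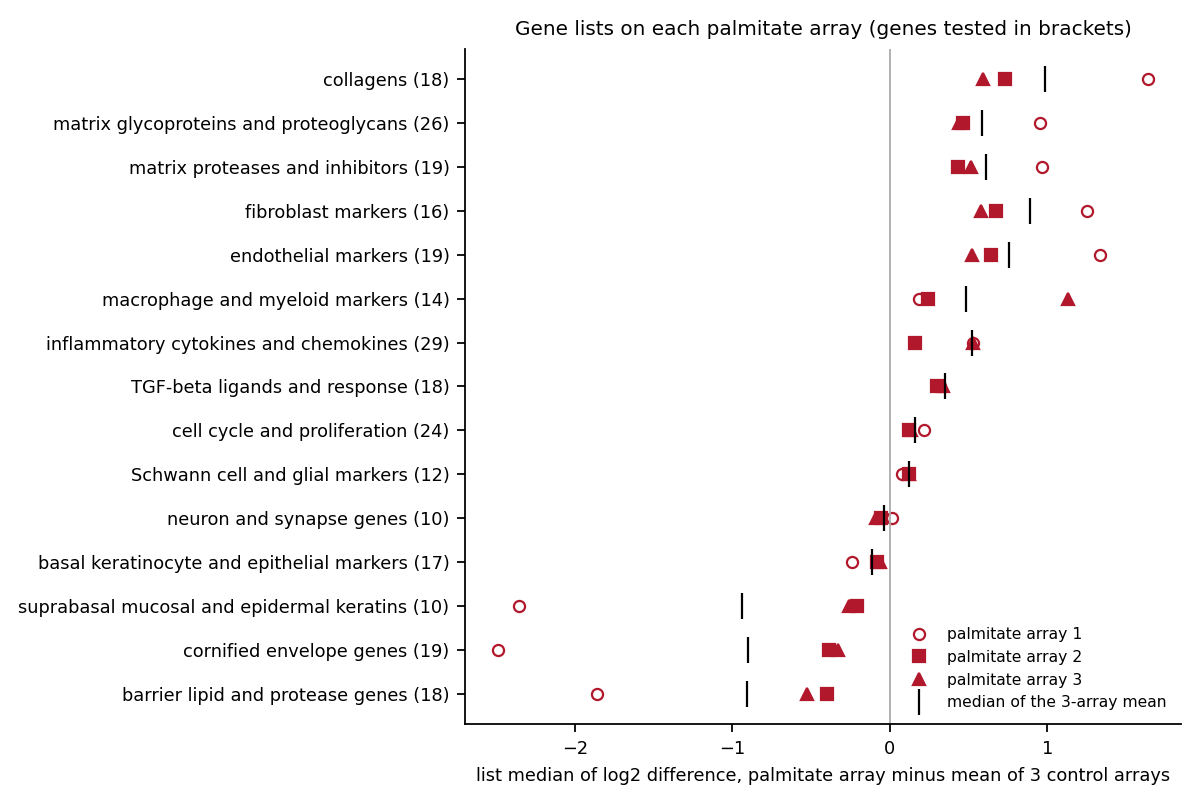
Median over the tested members of each gene list (number in brackets) of the difference between 1 palmitate array and the mean of the 3 control arrays (log2, horizontal axis). The open circle is palmitate array 1, the square array 2, the triangle array 3, and the vertical bar the median with the 3 arrays averaged. For cornified envelope genes array 1 is at −2.49 log2, against −0.39 and −0.33 log2 for arrays 2 and 3, and for macrophage markers array 3 is the high one.

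Genes of epithelial differentiation had lower values with palmitate, mostly on array 1, and none was called with all arrays. No gene of the cornified envelope, the protein shell of dead surface keratinocytes, was called among 19 tested. In 13 of them every palmitate array was below every control array, beside 17.1% of all genes, and the median was −0.90 log2. Their median was −2.49 log2 on palmitate array 1, −0.39 on array 2 and −0.33 on array 3. Without array 1 it was −0.46 log2, and 8 of the 19 were called lower. Sprr3, a small proline-rich precursor of the envelope, measured 1.75, 3.78 and 4.28 log2 with palmitate, against 5.88, 5.43 and 5.27 log2 with control diet (−2.25 ± 0.59 log2, adjusted p = 0.0808). Krtdap, a secreted protein of differentiating keratinocytes, measured 5.38, 7.38 and 7.05 log2, against 8.19, 8.32 and 8.01 log2 (−1.57 ± 0.46 log2). In both, the ranges did not overlap and array 1 was the lowest by about 2 log2.

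Suprabasal keratins had a median of −0.94 log2 over 10 genes with no call, and of −0.21 log2 without palmitate array 1, when 4 were called lower. Krt10, the keratin of the epidermal spinous layer, measured 3.66, 5.84 and 5.42 log2 with palmitate, against 6.58, 7.25 and 6.56 log2 (−1.82 ± 0.52 log2, adjusted p = 0.0945). Krt4, of the oral and oesophageal mucosa, measured 7.92, 10.44 and 10.44 log2, against 10.71, 10.62 and 10.62 log2. For Krt4 the difference came almost wholly from array 1, and it was −0.21 log2 without that array. The 18 barrier lipid and protease genes gave a similar picture, with a median of −0.91 log2 and of −0.40 log2 without palmitate array 1, no call (7 called lower without that array) and 13 non-overlapping lower genes, beside 17.1% of all genes. Spink5, an inhibitor of the proteases that shed surface cells, measured 3.74, 5.91 and 6.18 log2, against 7.18, 6.99 and 6.92 log2. Basal keratinocyte markers differed less, with a median of −0.11 log2 over 17 genes and no call (2 higher and 1 lower without palmitate array 1). Their mean level lay between 10.54 and 10.69 log2 with palmitate, against 10.71 to 10.73 log2. Whether the share of differentiated epithelium in the samples moved these values was not tested.

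Glial and neuronal lists showed few called differences. None of 12 Schwann cell and glial markers was called, and the median was 0.13 log2. In 4 of them every palmitate array was below every control array and in 1 above, beside 17.1% and 14.9% of all genes. In the fit that left out palmitate array 1, 1 was called higher and 2 lower. Sox2, a factor of immature glia and of epithelial stem cells, measured 4.31, 4.86 and 4.95 log2 with palmitate, against 5.89, 5.67 and 5.39 log2 (−0.94 ± 0.20 log2, adjusted p = 0.0571). Erbb3 measured 8.20, 8.61 and 8.68 log2, against 9.15, 9.11 and 9.07 log2 (−0.61 ± 0.14 log2, adjusted p = 0.0617). Both were lower on each palmitate array without passing the test, while the sodium channel gene Scn7a was higher on each (1.32 ± 0.36 log2, adjusted p = 0.0865). Myelin genes had no call in 7, with a median of −0.12 log2 that became positive when all probe sets of a gene were averaged. Among 13 repair and injury genes 2 rose, Il6 and the growth cone protein Gap43. Gap43 measured 10.59, 10.54 and 10.38 log2 with palmitate, against 9.94, 9.99 and 10.02 log2, a rise of 0.52 ± 0.09 log2 (adjusted p = 0.0434) on tightly spaced arrays. None of 10 neuron and synapse genes was called. Leaving out palmitate array 1, 1 of them was called lower and 1 myelin gene higher.

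Of 28 axon guidance genes 2 fell, beside 0.725% of all genes: the semaphorin co-receptor Plxna1 (−0.60 ± 0.11 log2) and the ephrin Efnb2 (−0.84 ± 0.16 log2). In 11 every palmitate array was below every control array, beside 17.1% of all genes. Without palmitate array 1, 1 was called higher and 4 lower, beside 3.08% and 3.18% of all genes. Sema4g, a class 4 semaphorin, was among the 15 largest falls of called genes, at 3.87, 4.78 and 4.48 log2 with palmitate, against 5.74, 5.90 and 5.53 log2. Among 14 chondroitin sulfate and perineuronal net genes 1 rose, the chain-making enzyme Chsy1, by 0.63 ± 0.11 log2, and among 14 neurotrophic factors and receptors and 10 neuropeptides and receptors none was called. Of the neurotrophic genes, 1 was called higher and 1 lower without palmitate array 1. Galanin (Gal), a neuropeptide, measured 6.07, 6.49 and 6.26 log2 with palmitate, against 6.19, 5.94 and 6.19 log2, which overlap (0.17 ± 0.13 log2, adjusted p = 0.504). Its receptors Galr1 (0.02 ± 0.12 log2) and Galr3 (−0.03 ± 0.08 log2) were not called and Galr2 was below the filter. Mouse Cd36 measured 5.42, 5.27 and 5.39 log2, against 4.83, 5.14 and 5.32 log2 (0.26 ± 0.13 log2, adjusted p = 0.283). These levels are near the filter.

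Of 19 fatty acid oxidation and PPAR target genes, 2 fell, none rose, 10 had every palmitate array below every control array, beside 17.1% of all genes, and the median was −0.17 log2. Calls without palmitate array 1 were 4 lower and 1 higher. Acot1, a thioesterase that releases free fatty acid from acyl-CoA, measured 4.39, 4.68 and 4.78 log2 with palmitate, against 5.94, 5.76 and 5.75 log2 with control diet. It fell by 1.20 log2 (SE 0.12, adjusted p = 0.0206) with the diets well apart, and its palmitate arrays lay below the filter level of 5.19 log2. Cpt2, which rebuilds acyl-CoA inside mitochondria for oxidation, measured 6.06, 6.12 and 6.29 log2, against 6.89, 6.80 and 6.59 log2, and fell by 0.61 log2 (SE 0.11, adjusted p = 0.0483). Its outer-membrane partner Cpt1a had −0.64 ± 0.14 log2 (adjusted p = 0.0617) and the starvation-induced kinase Pdk4 −2.27 ± 0.53 log2 (adjusted p = 0.0641). Pdk4 measured 3.31, 5.65 and 5.06 log2, against 7.02, 7.06 and 6.75 log2, and without array 1 the difference was −1.59 log2. With the opposite sign, the PPAR target Angptl4, an inhibitor of lipoprotein lipase, had 0.66 ± 0.13 log2 (adjusted p = 0.0534). Fatty acid synthesis gave no call in 18 genes (5 lower and 1 higher without palmitate array 1), with a median of −0.19 log2, and cholesterol synthesis 1 fall in 16 genes. Fdft1, squalene synthase, measured 7.21, 7.11 and 7.06 log2, against 8.35, 7.91 and 7.85 log2, and fell by 0.91 log2 (SE 0.14).

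Some DNA replication genes rose by less than 1 log2. Of 24 cell cycle and proliferation genes, 3 rose, none fell, and 12 had every palmitate array above every control array, beside 14.9% of all genes. Their median was 0.16 log2 (0.14 log2 without palmitate array 1, when 4 were called higher). Rrm2, the small subunit of ribonucleotide reductase, measured 9.54, 9.34 and 9.30 log2 with palmitate, against 8.74, 8.84 and 8.69 log2 (0.64 ± 0.10 log2, adjusted p = 0.0361). Mcm5 and Mcm4, subunits of the replicative helicase, rose by 0.78 ± 0.13 and 0.72 ± 0.13 log2. Mcm2, Mcm6, Mcm3 and Mcm7 of the same ring had 0.42 to 0.78 log2, did not overlap between diets and missed the threshold. Oxidative phosphorylation had no call in 29 genes with a median of −0.09 log2. In hypoxia and glycolysis, the glycolytic activator Pfkfb3 rose by 0.55 ± 0.08 log2, the oxygen-sensing hydroxylase Egln3 fell by 0.69 log2 (SE 0.11), and the median was −0.04 log2. Without palmitate array 1, 1 gene of that list was called higher and 2 lower. With all arrays, no gene was called in the lists of type I interferon response, antigen presentation, endoplasmic reticulum stress, immediate early and heat shock genes, oxidant response, or mast cell, skeletal muscle, adipocyte and red blood cell markers, nor in the lists of simple epithelium and of the insulin-like growth factor system. Of 17 interferon response genes 4 were called lower without palmitate array 1, and that list's median was −0.10 log2, against 0.07 log2 with all arrays. Without that array, 2 simple epithelium genes, 1 antigen presentation gene and 2 oxidant response genes were called lower and 1 oxidant response gene higher.

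Several of the largest single differences lay outside these lists. Dio2, the deiodinase that makes active thyroid hormone, measured 11.29, 9.73 and 9.45 log2 with palmitate, against 7.80, 7.99 and 7.57 log2, a rise of 2.37 ± 0.44 log2 (1.80 log2 without palmitate array 1). Hp, haptoglobin, which binds free haemoglobin, measured 8.39, 9.44 and 9.50 log2, against 7.31, 7.18 and 7.30 log2, a rise of 1.85 ± 0.28 log2. In Hp palmitate array 1 was the lowest palmitate array, and the difference was 2.21 log2 without it. Among falls, the dehydrogenase-family gene Sdr42e1 measured 4.42, 5.43 and 5.28 log2 with palmitate, against 6.77, 6.54 and 6.71 log2 (−1.63 ± 0.25 log2). Otop2, a proton channel, had −1.45 ± 0.25 log2 and the membrane metalloprotease Adam28 −1.38 ± 0.18 log2. Aldh1l2, a mitochondrial enzyme of folate metabolism, measured 6.42, 6.57 and 6.68 log2, against 7.63, 7.82 and 7.58 log2 (−1.12 ± 0.11 log2), a fall of like size on every array. The other falls among the 15 largest of called genes were Ttc22, Dennd2d, Tmprss4, Rassf10, Cacna2d2, Apoc1 and the hair follicle keratin Krt75, at −1.11 to −0.93 log2. Some genes that missed the threshold, such as Pdk4 and Sprr3, fell further. Several of the named falls had palmitate means below 5.19 log2, the filter level for the mean over all 36 arrays. These means were 5.04 for Sdr42e1, 4.50 for Otop2, 4.38 for Sema4g, 5.11 for Ttc22 and 4.53 log2 for Krt75.

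The palmitate difference of the non-targeting tumours was then set against that of the shCD36 tumours of the same experiment, which share no array with it. It differed in 1224 genes, 741 (5.78%) with a higher and 483 (3.77%) with a lower value in the non-targeting tumours. With quantile normalization the split was 617 higher and 631 lower. Without palmitate array 1 the counts were 762 (5.94%) and 562 (4.38%). Over 12823 genes the 2 differences had a Pearson correlation of −0.18 and a Spearman correlation of −0.17, a description of genes, which are not independent. Of the 155 genes called higher in the non-targeting tumours, 25 had a positive difference in the shCD36 tumours, where 45.1% of all genes were positive, and 141 had a called difference of effects. Of the 93 called lower, 27 had a negative difference there, beside 54.9% of all genes, and 83 had a called difference of effects. The called genes were chosen on non-targeting arrays that also enter the difference of effects, so these counts are not independent of the choice.

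Many of the collagens and endothelial markers were higher in this contrast, beside 5.78% of all genes. Of the 18 collagens tested, 11 had a higher palmitate difference in the non-targeting tumours and none a lower one (10 and none without palmitate array 1), and their median in the shCD36 tumours was −0.37 log2. Col6a3 differed between shRNAs by 3.65 ± 0.53 log2 (adjusted p = 0.0031). In the shCD36 tumours it measured 9.63, 10.44 and 9.51 log2 with palmitate, against 9.31, 10.89 and 11.04 log2 with control diet. Those ranges overlap, and 2 of the 3 shCD36 control arrays lay about 2 log2 above the non-targeting control arrays. Col1a1 measured 11.78, 11.94 and 11.67 log2 with palmitate in shCD36 tumours, against 12.65, 12.66 and 12.87 log2 with control diet, so there the palmitate arrays were the lower ones. Its difference between shRNAs was 2.93 ± 0.24 log2 (adjusted p = 0.000153). Postn, at 9.54, 8.96 and 9.16 log2 against 10.13, 10.25 and 10.42 log2 in shCD36 tumours, was likewise lower with palmitate there. Averaged over the collagens, the level was 10.73 to 11.34 log2 on the palmitate arrays and 9.73 to 9.98 log2 on the control arrays of non-targeting tumours. In shCD36 tumours it was 9.85 to 10.05 log2 with palmitate and 10.10 to 10.41 log2 with control diet. The contrast thus holds differences in the palmitate arrays and in the control arrays of both shRNAs.

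Of 19 endothelial markers 15 had a higher palmitate difference in the non-targeting tumours and none a lower one (13 and none without palmitate array 1), with a median of −0.42 log2 in shCD36 tumours. Of 24 cell cycle genes 9 were higher in the contrast (10 without palmitate array 1), with a median of −0.23 log2 in shCD36 tumours. Matrix glycoproteins had 12 of 26, matrix proteases 9 of 19 and TGF-beta genes 8 of 18 higher and none lower, and fibroblast markers 7 of 16 higher and 1 lower. The counts with all arrays stand beside 5.78% higher and 3.77% lower of all genes. Without palmitate array 1, 11 matrix glycoproteins and 6 fibroblast markers were higher. Mmp13 rose in the non-targeting tumours and had 1.06 log2 in the shCD36 tumours, a difference of 1.38 log2 that missed the threshold (adjusted p = 0.14).

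Genes lower in the contrast included several that were higher with palmitate in the shCD36 tumours. S100a8 measured 7.51, 8.06 and 7.82 log2 with palmitate in shCD36 tumours, against 5.04, 6.17 and 4.72 log2 with control diet. With the fall in non-targeting tumours the difference of effects was −3.84 ± 0.46 log2 (adjusted p = 0.0011). S100a9 measured 8.28, 9.17 and 8.38 log2, against 6.10, 6.63 and 5.81 log2 in shCD36 tumours. Il33, an alarmin of epithelial and vascular nuclei, measured 8.70, 8.92 and 8.58 log2, against 5.97, 7.03 and 7.12 log2 in shCD36 tumours, while non-targeting tumours had 8.48, 8.20 and 8.32 log2 with palmitate and 8.61, 8.61 and 8.42 log2 with control diet. The shCD36 control arrays are thus the low group of Il33. Of 19 cornified envelope genes 3 were lower in the contrast with all arrays, and 11 without palmitate array 1. The median of that list in the shCD36 tumours was 0.00 log2.

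**Figure D4:**
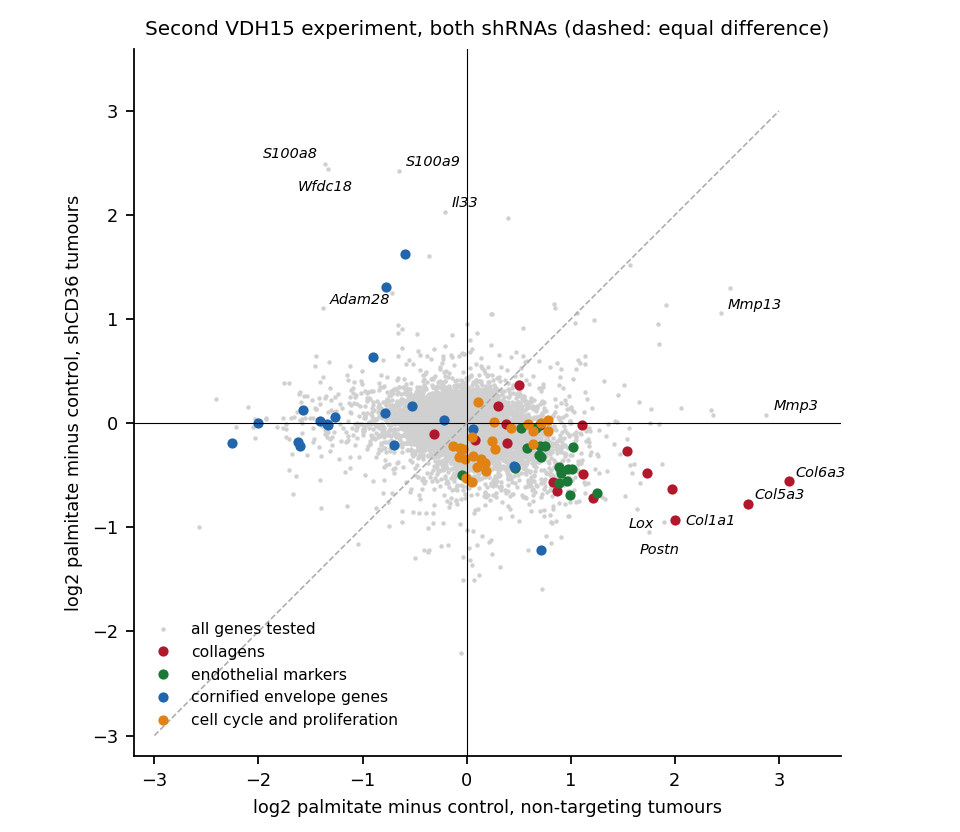
Palmitate minus control (log2) in non-targeting tumours (horizontal axis) against the same in shCD36 tumours (vertical axis) of the second VDH15 experiment for 12823 genes, with 4 gene lists coloured. All but 1 of the 18 collagens and all but 1 of the 19 endothelial markers lie right of 0, 16 of the 19 cornified envelope genes lie left of 0, and S100a8, S100a9, Wfdc18 and Il33 above 2 log2 on the vertical axis.

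Against the first VDH15 experiment, whose non-targeting tumours had 4 arrays per diet, the palmitate difference differed in 1158 genes, 678 (5.29%) higher and 480 (3.74%) lower in the second. Without palmitate array 1 the counts were 672 (5.24%) and 539 (4.2%). Over all genes the Pearson correlation of the differences was 0.57 and the Spearman correlation 0.42 (Pearson 0.50 without palmitate array 1). Of the 155 genes called higher, 137 were positive in the first experiment, beside 44.2% of all genes, and of the 93 called lower 82 were negative, beside 55.8%. Of the cell cycle genes, 12 of 24 had a higher palmitate difference in the second experiment and none a lower one (11 and none without palmitate array 1). The list medians were 0.16 log2 in the second and −0.30 log2 in the first. Krt15, a keratin of basal cells, measured 8.57, 8.31 and 8.51 log2 with palmitate, against 8.82, 9.05 and 9.15 log2 in the second experiment, and 6.98, 7.04, 8.28 and 8.26 log2, against 9.94, 9.75, 10.05 and 9.87 log2, in the first. The lowering was larger in the first experiment, by 1.72 ± 0.40 log2 (adjusted p = 0.0233). Its palmitate arrays there formed 2 pairs, arrays 1 and 2 lower than arrays 3 and 4.

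Cxcl14 had opposite signs in these experiments. In the first it measured 10.76, 10.65, 10.14 and 10.55 log2 with palmitate, against 9.16, 9.24, 9.0 and 9.07 log2 with control diet, all palmitate arrays being higher. The difference between the experiments was −2.51 ± 0.23 log2 (adjusted p = 0.0003). Alas2, the first enzyme of haem synthesis in red cells, measured 11.37, 11.41, 11.10 and 11.00 log2 with palmitate in the first experiment, against 8.93, 9.16, 9.05 and 9.06 log2 with control diet. In the second experiment it measured 9.21, 9.60 and 9.84 log2, against 9.85, 9.95 and 9.90 log2, a difference between experiments of −2.52 ± 0.19 log2. Chil1, a chitinase-like secreted protein, was higher with palmitate in the first experiment and lower on each palmitate array of the second (−3.18 ± 0.61 log2 between them).

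Against SCC25 tumours with the non-targeting shRNA, 216 genes differed, 35 (0.273%) higher and 181 (1.41%) lower in the second VDH15 experiment. Without palmitate array 1 the counts were 134 (1.04%) and 402 (3.13%). The Pearson correlation over all genes was 0.70 and the Spearman correlation 0.60 (Pearson 0.62 without palmitate array 1). Of the 155 genes called higher 150 were positive in SCC25 tumours, beside 41.3% of all genes, and of the 93 called lower 89 were negative, beside 58.7%. Of 19 endothelial markers 10 and of 18 collagens 5 had a lower palmitate difference in the VDH15 tumours, and none a higher one. These counts were 15 and 9 without palmitate array 1. Cornified envelope genes with a higher difference numbered 1 of 19 with all arrays and 11 without that array, and suprabasal keratins 1 of 10 and 6. Col3a1 measured 14.62, 14.58 and 14.50 log2 with palmitate in SCC25 tumours, against 9.42, 9.44 and 10.60 log2 with control diet. The VDH15 arrays had 13.87, 13.18 and 12.99 log2, against 11.47, 12.38 and 11.57 log2, and the difference of effects was −3.21 ± 0.46 log2 (adjusted p = 0.0038).

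Some smooth muscle genes set the VDH15 tumours further apart from SCC25. Of 9 smooth muscle and pericyte markers tested, 3 had a lower palmitate difference in the VDH15 tumours and none a higher one. Over all genes these shares were 1.41% and 0.273%. The list's median was 0.05 log2 in the VDH15 and 0.47 log2 in the SCC25 tumours. Myh11 of that list, and Mylk outside it, are named as among the 6 lowest genes of the contrast. Myh11, the smooth muscle myosin heavy chain, measured 8.58, 10.14 and 10.14 log2 with palmitate in VDH15 tumours, against 9.99, 10.09 and 10.26 log2, which overlap. In SCC25 tumours it measured 11.41, 11.85 and 11.50 log2, against 7.82, 8.45 and 9.18 log2. The difference of effects was −3.60 ± 0.55 log2 (adjusted p = 0.00605), and Mylk, the myosin light chain kinase, had −3.27 ± 0.44 log2. On the other side, Hp measured 7.78, 7.59 and 7.76 log2 with palmitate in SCC25 tumours, against 7.66, 7.35 and 7.61 log2, so its rise in the VDH15 tumours was larger, by 1.67 ± 0.32 log2 (adjusted p = 0.0223). Csf2 was likewise 1.29 ± 0.25 log2 higher in the contrast. The experiments differ in hybridization and scan batch, which cannot be told apart from the experiment, although each palmitate difference was formed within 1 experiment. Because the deposited values carry no linear effect of batch or cell line, levels are not comparable between experiments, only differences within them.

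**Figure D5:**
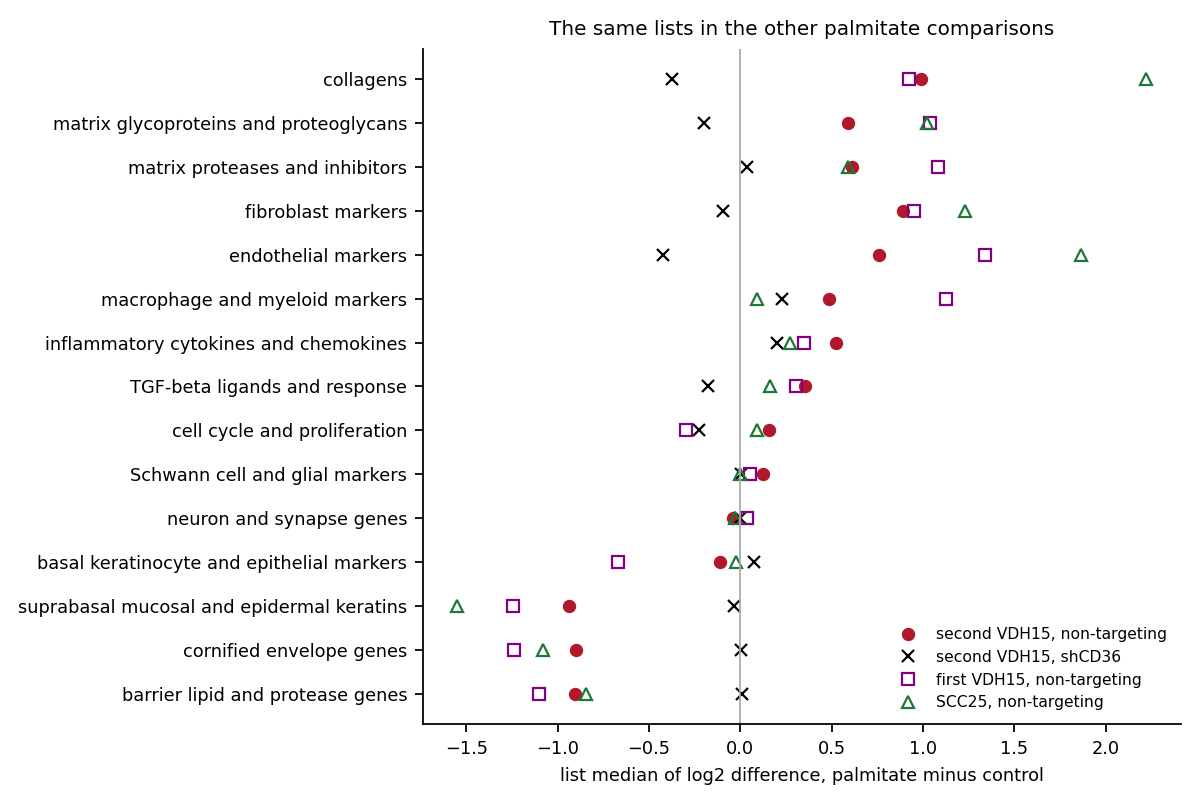
Median over the tested members of each gene list of palmitate minus control (log2, horizontal axis) in non-targeting tumours of the second VDH15 experiment (red circles), in its shCD36 tumours (crosses), in the first VDH15 experiment (squares) and in SCC25 tumours (triangles). Collagens are at 0.99 log2 in the second VDH15 experiment, −0.37 in its shCD36 tumours, 0.92 in the first VDH15 experiment and 2.22 in SCC25 tumours, and cell cycle genes are negative in the shCD36 tumours and in the first VDH15 experiment.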

How the data were processed

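The authors' deposited values are log2 intensities of 45141 probe sets on 36 mouse Affymetrix arrays, for which the submitters' processing notes name RMA and affy. The deposited log2 values carry no linear effect of hybridization batch, scan batch or cell line once diet and shRNA are modelled (below 1e-06 in 100% of probe sets); who removed it, and how, is not given in the sources used here. No raw intensities, and so no background levels, were used. Of 28898 probe sets with 1 gene, 1 was kept for each of 17097 genes, that of highest mean over the 36 arrays, and the lowest 25% of genes (mean under 5.19 log2) were left out. Gene symbols come from the platform annotation, updated through RefSeq identifiers for 28689 probe sets.

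Palmitate and control arrays were compared with limma 3.58.1 (R 4.3.3; lmFit and eBayes, 4 residual and 3.43 prior degrees of freedom), calling Benjamini-Hochberg adjusted p under 0.05 over all genes. An exact permutation test of 3 arrays against 3 cannot go below p = 0.1. Differences of effects were interaction contrasts over 12, 14 and 12 arrays. The number of arrays limits the precision, and whether the arrays of a group share an RNA extract or animal is not stated. The comparison, the 41 gene lists and the rule for named genes were chosen with earlier results of these data known. The rule names, among called and non-overlapping genes, the 15 highest and 15 lowest differences, 6 and 6 for each difference of effects, and within a list the 4 smallest p-values or the members a sentence counts; 8 predicted genes were passed over. The script was tested on simulated data. Alternatives were a variance trend, averaged probe sets, other filters, array weights, quantile normalization, all 12 arrays of the experiment, a replicate block, a fold rule and leaving out each array.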

Additional observations from a re-analysis of the deposited data

Results flagged for a closer look

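The palmitate difference of the non-targeting tumours differed from that of the shCD36 tumours, by a test of the difference itself, in 1224 genes. Higher in the non-targeting tumours were Col6a3 (3.65 log2), Col5a3 (3.48), Col1a1 (2.93), Lox (2.84), Mmp3 (2.80) and Postn (2.80), genes of collagens and their processing. Lower were S100a8 (−3.84 log2), Wfdc18 (−3.78), S100a9 (−3.08), Adam28 (−2.48), Pla2g4f (−2.25) and Il33 (−2.24). For S100a8, Wfdc18, S100a9 and Il33 the shCD36 tumours had more than 2 log2 higher values with palmitate than with control diet. For Pla2g4f, a cytosolic phospholipase, the shCD36 arrays lay between 7.33 and 7.51 log2 with palmitate and between 7.03 and 7.40 log2 with control diet. In the non-targeting tumours it measured 3.76, 6.14 and 5.98 log2 with palmitate, against 7.54, 7.41 and 7.22 log2 with control diet. Without palmitate array 1, the lowest, that palmitate difference was −1.33 log2.

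Between the second and the first VDH15 experiment 1158 genes differed in the same test. Higher in the second were Cxcl11 (2.22 log2), Tmigd1 (2.15), Col6a3 (2.02), Mmp13 (1.94), Sox21 (1.82) and Krt15 (1.72). Cxcl11, an interferon-induced chemokine, measured 8.86, 7.05 and 6.83 log2 with palmitate, against 7.95, 8.24 and 7.70 log2 in the second experiment, and 5.32 to 6.39 log2, against 8.15 to 8.71 log2, in the first. Lower in the second were Chil1 (−3.18 log2), Heyl (−2.63), Alas2 (−2.52), Cxcl14 (−2.51), Sprr3 (−2.21) and Plaat3 (−2.17). Heyl, a Notch target, measured 9.75 and 9.84 log2 on palmitate arrays 1 and 2 of the first experiment and 7.76 and 7.74 log2 on arrays 3 and 4, so that difference rests mostly on 2 arrays there.

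Between the second VDH15 experiment and SCC25 tumours 216 genes differed. Higher in the VDH15 tumours were Lgi2 (1.73 log2), Krt6b (1.68), Hp (1.67), Sprr2a1 (1.41), Csf2 (1.29) and Tmigd1 (1.10). For Lgi2, Krt6b and Sprr2a1 the SCC25 tumours were the side with the larger change, lower with palmitate by 1.49, 1.99 and 2.00 log2. Lower in the VDH15 tumours were Myh11 (−3.60 log2), Mylk (−3.27), Crispld2 (−3.26), Col3a1 (−3.21), Fam107a (−2.97) and Galnt15 (−2.86).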

How the results depend on the processing

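The count of 248 genes moved by more than 1.5 times under several settings. It was 610 with an intensity trend in the prior variance, 535 with the lowest 50% of genes left out, 1039 with array weights, 378 with quantile normalization and 1846 with all 12 arrays of the experiment in the fit, against 223 with averaged probe sets, 230 with no filter and 239 by the fold rule without a test. Leaving out 1 array gave between 2 and 803 genes: 803, 87 and 13 without palmitate arrays 1, 2 and 3, and 4, 2 and 3 without control arrays 1, 2 and 3. With the replicate number as a block 3 genes were called. The deviations of same-numbered arrays from their group means correlated at −0.22, −0.20 and −0.09. Differently numbered arrays were not compared, so these values cannot decide whether the numbers pair the samples. The difference from shCD36 tumours ranged from 736 (without control array 1) to 1530 genes over the left-out arrays, that from the first experiment from 520 to 1211, and that from SCC25 tumours from 130 to 536, with 409 under array weights. The 520 was without control array 1; the counts were 634 and 584 without control arrays 2 and 3, and 761 and 604 without palmitate arrays 2 and 3. The 130 was without control array 3 and the 536 without palmitate array 1. The cause of these shifts was not tested. A change of sign was looked for in the named genes and in the list medians. In the named genes none was found, for the palmitate difference or for the differences of effects. Every one of the 30 named genes kept its direction under each alternative run, although 28 of them missed the threshold when any 1 control array was left out. Medians near 0, such as those of the myelin, neuropeptide and interferon lists, changed sign under some settings.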
